A study of Mus musculus with 18 samples.

Results

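The channels and the pump that move sodium, potassium, chloride and calcium across a kidney epithelium were followed here at the level of messenger RNA in cultured mouse tubule cells stimulated with TWEAK. The set held 9 genes, chosen by their current mouse symbols from the 36528 genes of the count tables: Cftr, Scnn1a, Scnn1b, Scnn1g, Kcnj15, Kcnj16, Trpv4, Atp1b1 and Fxyd2. All 9 were found, 6 of them (Cftr, Scnn1a, Trpv4, Atp1b1, Kcnj16 and Fxyd2) were counted with over 10 reads in 4 or more samples and were tested, and 3 (Scnn1b, Scnn1g and Kcnj15) were below that limit and were not tested. Fxyd2 passed that limit in 5 samples, all of them collected at 6 h.

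The cells were renal tubulointerstitial epithelial cells of C57BL/6 mice, bought from a commercial supplier (ScienCell) and named mRPTEC in the labels. They were analyzed by RNASeq in 6 groups of 3 samples: vehicle (DMSO), recombinant mouse TWEAK at 100 ng/mL, and TWEAK at 100 ng/mL with NIK SMI1 at 3 μM, each for 6 h or 24 h. TWEAK is a cytokine of the TNF family, and NIK SMI1 is a small molecule inhibitor of NIK, the kinase on which non-canonical NF-κB signaling depends. The comparison of TWEAK with vehicle asks what the cytokine changes, and the comparison of TWEAK plus NIK SMI1 with TWEAK asks what the inhibitor changes in stimulated cells. No group received NIK SMI1 alone, so that an effect of the compound on unstimulated cells cannot be told apart from an effect on TWEAK signaling. Nothing in the labels says that the 3 samples of a group came from separate animals, so that p-values measure only the spread between these samples. Replicate numbers used below follow the order in which the samples of a group are listed. They are not in the labels and link no samples between groups.

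In a salt-transporting epithelium, the sodium pump (Na,K-ATPase) in the basolateral membrane keeps cell sodium low and cell potassium high, and channels then let single ions follow their gradients. The pump is a catalytic alpha subunit with a beta subunit that carries it to the membrane, and FXYD proteins, such as the gamma subunit encoded by Fxyd2, tune it. The epithelial sodium channel ENaC is built from the subunits encoded by Scnn1a, Scnn1b and Scnn1g and is best known from the distal nephron and collecting duct. CFTR is a chloride channel opened by cAMP and protein kinase A, Kcnj15 and Kcnj16 encode inward rectifier potassium channel subunits, and TRPV4 is a calcium-permeable cation channel that responds to swelling and stretch.

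Sequencing gave 18040966 to 51956444 counted reads per sample (median 35374254), so that 3 reads corresponded to 0.05774 to 0.1663 CPM (counted reads scaled to a common library size of 1000000) in a single sample. Genes that TWEAK and NIK are known to control were used to check the labels. Nfkb2, Relb and Birc3 rose with TWEAK at both times, by 1.90, 0.82 and 2.48 on the log2 scale at 6 h, and each fell when NIK SMI1 was present. Epithelial genes were abundant, with Krt18 at 3493 to 4939 CPM and Cdh1 at 1020 to 1459 CPM. Markers of the proximal tubule were mixed. Of 14, Slc22a8 and Miox had 0 reads in all 18 samples, and Slc34a1, Slc22a6 and Pck1 had 0 reads in 15, 17 and 15 samples. Another 6 had reads in every sample, among them Slc4a4 at 86.09 to 235.8 CPM, Slc5a2 at 5.832 to 8.519 CPM, Cubn at 1.928 to 4.637 CPM and Ggt1 at 0.325 to 2.106 CPM. The lowest of them were Lrp2 at 0.05745 to 0.5857 CPM and Slc5a12 at 0.05543 to 0.4512 CPM. Hnf4a had 0 reads in 9 samples, and Slc9a3 and Aqp1 had at most 0.1849 and 0.455 CPM. Of 10 markers of collecting duct principal cells, Aqp2 had 0 reads in 17 of the 18 samples, and Hsd11b2 (4.059 to 6.741 CPM) and Gata3 (0.2029 to 2.187 CPM) had reads in every sample. The cells are called tubule epithelial cells by their label. Reads of 8 pancreatic islet genes, among them the insulin gene Ins2, made up 15.1 to 33.1 CPM in 13 libraries, 4.68 and 0.235 CPM in replicates 3 and 2 of TWEAK at 24 h, and 0.0451 to 0.087 CPM in the 3 libraries of TWEAK with NIK SMI1 at 24 h. For genes of the set, changes with TWEAK and with NIK SMI1 at 24 h were therefore also fitted with a single TWEAK sample. Replicate 2 had islet reads nearest to those of the NIK SMI1 libraries, and replicate 1 had islet reads like those of vehicle. In such a fit the single sample is assumed to vary like the other groups. No such fit is given for differences between the times, for inhibited cells against vehicle or for genes outside the set.

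The levels of the 9 genes differed widely. Per length (RPKM, deposited by the authors), the mean over the 18 samples was 45.1 for Trpv4, 17.2 for Atp1b1, 1.083 for Cftr, 0.9735 for Scnn1a, 0.2008 for Fxyd2, 0.09007 for Kcnj16, 0.008488 for Scnn1g, 0.007883 for Scnn1b and 0.005658 for Kcnj15. Among the genes tested, Trpv4 stood at percentile 89.5 and Atp1b1 at percentile 71.6 of mean RPKM, whereas Cftr and Scnn1a stood at percentiles 23.2 and 22.1. The neighbours Cftr (0.4495 to 1.564 RPKM) and Scnn1a (0.6483 to 1.664 RPKM) overlapped over the samples, as did Fxyd2 and Kcnj16 and the 3 genes with the fewest reads.

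**Figure D1:**
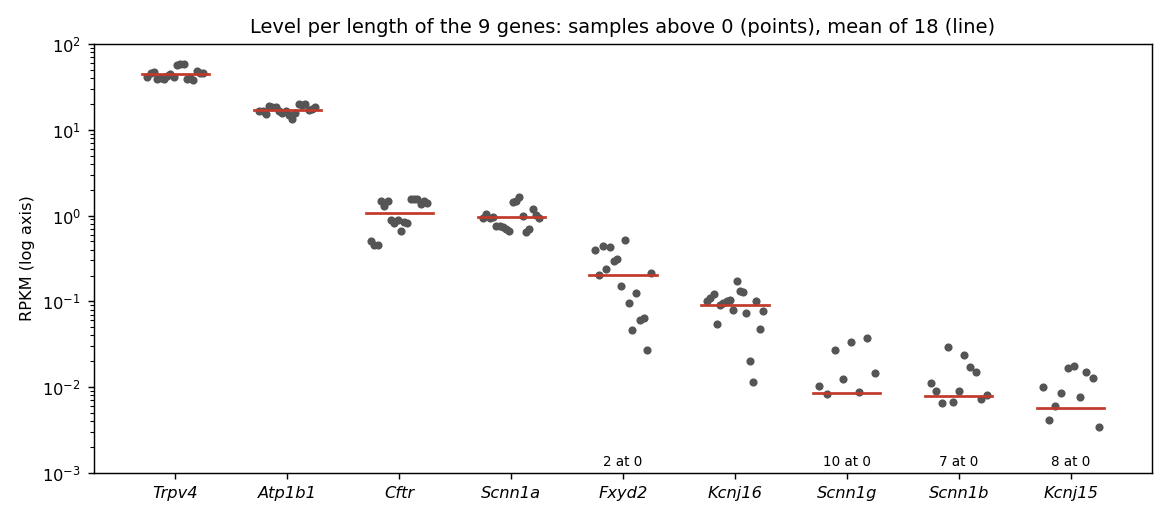
Level per length of the 9 genes (RPKM, logarithmic axis); each point is 1 sample with a value above 0, the line is the mean of 18 samples, and the number of samples at 0 is printed. Trpv4 (mean 45.1) and Atp1b1 (17.2) lie above all others, and Scnn1b, Scnn1g and Kcnj15 are at 0 in 7, 10 and 8 samples.

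The sequence upstream of the start site was read for the 3 genes on which most of the results below rest, Cftr, Trpv4 and Atp1b1, and for Kcnj15 as a gene with hardly any reads. The 250 bases before the annotated start (RefSeq, GRCm38.p6) are written 5′ to 3′ on the strand of the gene, and capitals mark CG dinucleotides. Cftr lies on the plus strand and its window is chr6:18170437-18170686. Trpv4 lies on the minus strand and its window is chr5:114658422-114658671. Atp1b1 lies on the minus strand and its window is chr1:164458356-164458605. Kcnj15 lies on the plus strand and its window is chr16:95257308-95257557.
Cftr: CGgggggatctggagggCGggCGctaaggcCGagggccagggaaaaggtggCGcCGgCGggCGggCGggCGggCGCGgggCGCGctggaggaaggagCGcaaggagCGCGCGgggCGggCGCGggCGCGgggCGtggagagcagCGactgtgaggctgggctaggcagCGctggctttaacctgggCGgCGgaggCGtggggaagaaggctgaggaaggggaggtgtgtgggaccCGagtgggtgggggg
Trpv4: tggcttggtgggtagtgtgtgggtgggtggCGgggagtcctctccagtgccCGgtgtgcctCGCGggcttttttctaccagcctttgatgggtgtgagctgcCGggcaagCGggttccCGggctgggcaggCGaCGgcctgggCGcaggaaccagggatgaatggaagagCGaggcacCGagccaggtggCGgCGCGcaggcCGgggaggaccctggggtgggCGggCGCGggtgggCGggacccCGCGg
Atp1b1: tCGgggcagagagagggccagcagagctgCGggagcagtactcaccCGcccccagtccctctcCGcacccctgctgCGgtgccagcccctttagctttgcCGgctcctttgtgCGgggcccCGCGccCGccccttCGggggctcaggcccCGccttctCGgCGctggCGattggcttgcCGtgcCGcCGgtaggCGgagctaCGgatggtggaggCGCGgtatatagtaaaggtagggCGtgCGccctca
Kcnj15: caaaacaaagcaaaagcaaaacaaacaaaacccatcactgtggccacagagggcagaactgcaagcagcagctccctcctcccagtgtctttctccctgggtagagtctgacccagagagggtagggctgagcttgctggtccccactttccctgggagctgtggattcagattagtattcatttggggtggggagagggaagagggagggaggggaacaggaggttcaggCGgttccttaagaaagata
The windows of Cftr, Trpv4 and Atp1b1 held 30, 22 and 24 CG dinucleotides and were 76.4%, 72% and 70.4% G or C. The window of Kcnj15 held 1 CG and was 53.2% G or C. Scnn1b and Scnn1g also had hardly any reads, and their windows held 7 and 16 CG and were 60.8% and 65.2% G or C. The windows of Kcnj16 held 1 to 7 CG. Over 14392 such windows of the genes tested (11225 genes), the median was 15 CG dinucleotides and 59.6% G or C, with quartiles of 7 and 22 CG, so that Cftr and Atp1b1 lay above the upper quartile and Trpv4 at it. Windows were at hand for 7 of the 9 genes (10 windows, since Kcnj16 has 4 starts), and for Scnn1a and Fxyd2 none was used here. On either strand, none of the 10 windows held the NF-κB consensus motif, the AP-1 motif TGANTCA or the CRE motif TGACGTCA, which 3.9%, 6.75% and 1.55% of all 32841 windows held. Overlaps between motifs were not removed, and a missing match says only that these letters are not in these windows.

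TWEAK moved the tested genes in both directions, 3 of them at 6 h and 5 at 24 h. With TWEAK for 6 h, Cftr and Atp1b1 rose and Trpv4 fell among the 6 genes tested, that is 2 higher and 1 lower, where 11.7% of all 15521 genes tested were called higher and 12% lower (edgeR quasi-likelihood test, Benjamini-Hochberg adjusted p below 0.05). With TWEAK for 24 h, the same 3 moved the same way and Scnn1a and Kcnj16 fell as well, so that 2 were higher and 3 lower against 18.3% and 20.7% of all genes. NIK SMI1 lowered Cftr and Atp1b1 and raised none at 6 h (background 5.7% lower and 5.34% higher). At 24 h it raised Trpv4, Scnn1a and Kcnj16 and lowered Atp1b1 (background 10.2% higher and 8.29% lower). The median change of the 6 genes with TWEAK was −0.13 (log2) at 6 h, against −0.0034 for all genes tested, and −0.05 at 24 h, against −0.01. In bulk samples a change in the share of cells that express a gene cannot be told apart from a change per cell.

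**Figure D2:**
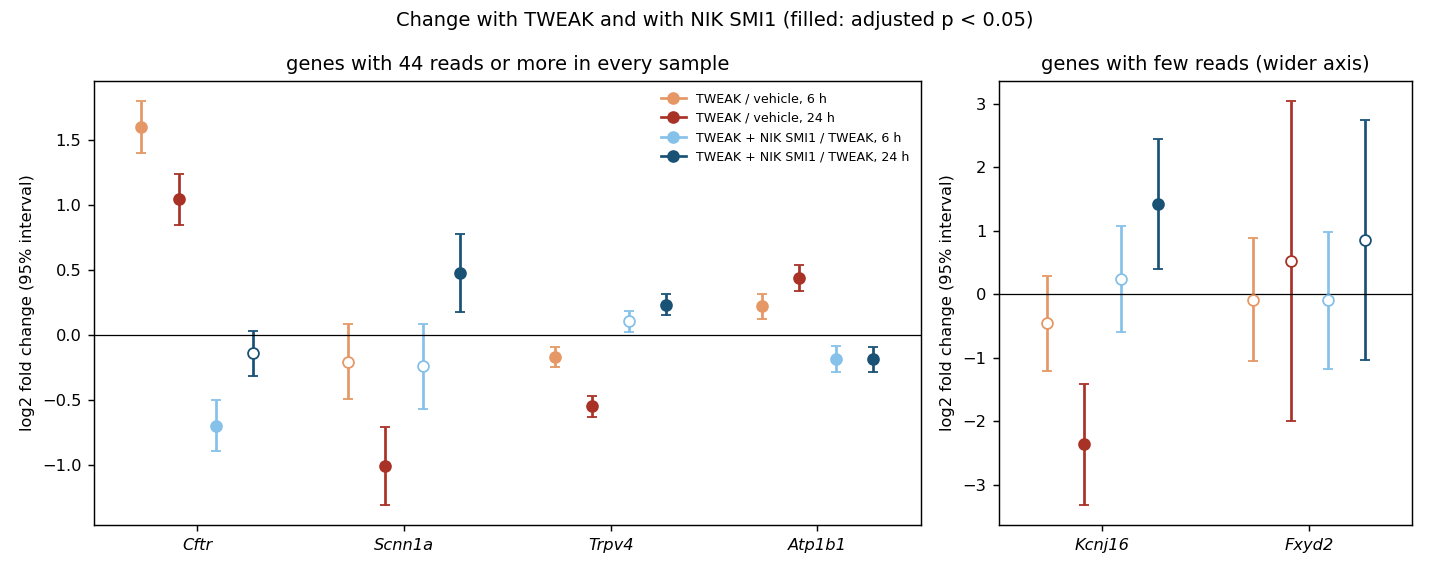
Log2 fold change of the 6 tested genes in the 2 TWEAK comparisons (orange and red) and the 2 NIK SMI1 comparisons (light and dark blue) with 95% intervals; filled points passed an adjusted p of 0.05, and the right panel has a wider axis. Cftr is the gene farthest above 0 with TWEAK (1.60 at 6 h), and Kcnj16 is farthest below (−2.36 at 24 h) with wide intervals.

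Cftr, at chr6:18170687-18322770 of GRCm38, showed the largest rise. At 6 h it measured 3.53, 3.15 and 3.23 CPM with vehicle, 10.3, 9.19 and 10.2 CPM with TWEAK, and 6.21, 5.83 and 6.32 CPM with TWEAK and NIK SMI1. The 3 groups did not overlap, and the samples with NIK SMI1 lay between the other groups. TWEAK raised Cftr 3.03-fold (log2 1.60 ± 0.10 SE, adjusted p = 3.76e-13 by edgeR), and NIK SMI1 lowered it by 0.70 on the log2 scale (SE 0.09, adjusted p = 5.53e-06). The level with NIK SMI1 remained above vehicle (log2 0.90, adjusted p = 8.17e-07). On the log2 scale 56% of the TWEAK effect was left, with 52% to 58.2% over the 3 inhibited samples.

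At 24 h the Cftr levels with NIK SMI1 were close to those with TWEAK alone. Vehicle gave 4.63, 5.99 and 5.76 CPM, TWEAK 10.97, 10.96 and 10.97 CPM, and TWEAK with NIK SMI1 9.52, 10.5 and 9.95 CPM. Both stimulated groups lay above all vehicle samples, and the inhibited samples lay below the TWEAK samples by a small margin. TWEAK raised Cftr 2.06-fold (log2 1.04 ± 0.10 SE, adjusted p = 9.98e-10), and the change with NIK SMI1 did not pass the test (log2 −0.14, 95% interval −0.31 to 0.03, adjusted p = 0.292). The share of the TWEAK effect left was 86.3% (78.6% to 94.4%). The TWEAK effect was smaller at 24 h than at 6 h by 0.56 on the log2 scale (interaction, adjusted p = 0.0095), and the NIK SMI1 effect differed between the times by 0.56 (adjusted p = 0.0101). Vehicle alone rose between 6 h and 24 h by 0.63 on the log2 scale (adjusted p = 7.08e-05). In CPM of the raw totals, without the scaling of the fit, vehicle measured 3.306 and 5.459. On that scale the TWEAK groups measured 9.91 ± 0.63 and 10.97 ± 0.0070 CPM (SD, n = 3), and they were not compared with each other in the fit. With TWEAK replicate 1 alone the 24 h value for TWEAK was 1.05 (adjusted p = 4.63e-06), and with replicate 2 alone 1.03 (adjusted p = 8.85e-07). The corresponding values for NIK SMI1 were −0.15 (adjusted p = 0.626) and −0.13 (adjusted p = 0.62). An antisense gene, Gm15592, overlaps exons of Cftr, and since the libraries do not mark strand, reads of these 2 genes cannot be told apart where they overlap.

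Trpv4, at chr5:114622152-114658435 of GRCm38, was the most abundant of 31 TRP, polycystin and Piezo genes measured, followed by Piezo1 at 33.1 RPKM and Trpa1 at 26.9 RPKM. At 6 h its level was 142, 160 and 163 CPM with vehicle, 137, 139 and 134 CPM with TWEAK, and 145, 154 and 144 CPM with TWEAK and NIK SMI1. The TWEAK samples were the lowest of the 3 groups, and the inhibited samples overlapped with vehicle. At 24 h the level was 199, 201 and 200 CPM with vehicle, 136, 141 and 134 CPM with TWEAK, and 167, 160 and 157 CPM with TWEAK and NIK SMI1. Here the 3 groups did not overlap.

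TWEAK lowered Trpv4 by 0.17 on the log2 scale at 6 h (SE 0.04, adjusted p = 0.00117) and by 0.55 at 24 h (SE 0.04, adjusted p = 4.96e-12), and the decrease at 24 h was the larger by interaction (log2 −0.38, adjusted p = 2.24e-05). NIK SMI1 raised it by 0.23 at 24 h (SE 0.04, adjusted p = 4.66e-05), and 57.4% of the TWEAK effect was left (49.7% to 64.4%). At 6 h the value was 0.11 (adjusted p = 0.0826), which did not pass. Trpv4 rose with time in vehicle (log2 0.30, adjusted p = 6.87e-07). In CPM of the raw totals, without the scaling of the fit, it measured 155.1 and 200 with vehicle at the 2 times. On that scale it measured 136.7 and 136.9 with TWEAK, and the TWEAK samples of the 2 times were not compared in the fit. With TWEAK replicate 1 alone the 24 h values were −0.55 for TWEAK and 0.24 for NIK SMI1, and with replicate 2 alone −0.51 and 0.20, and all 4 passed the test. Summed markers of the proximal tubule (14 genes, 5, 4 and 3 of them at 0 in all samples of vehicle, TWEAK and inhibited cells at 24 h) moved with Trpv4, from 208.7 to 212.5 CPM with vehicle to 98.16 to 105.9 CPM with TWEAK and 131.3 to 141.7 CPM with NIK SMI1. Most of that sum was 1 gene, the bicarbonate transporter gene Slc4a4, at 194.8 to 199.3, 86.09 to 93.62 and 119.4 to 128 CPM in the 3 groups. The other 13 markers together gave 13.19 to 14.92, 12.07 to 13.29 and 11.83 to 13.63 CPM. The part of these genes in the result was not tested.

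Of the 16 other genes of that list that were tested, 1 rose and 2 fell with TWEAK at 6 h (background 11.7% higher and 12% lower), and 2 rose and 3 fell at 24 h (18.3% and 20.7%). NIK SMI1 raised 1 and lowered 1 at 6 h (5.34% and 5.7%) and raised 2 and lowered 0 at 24 h (10.2% and 8.29%). Trpa1, a cation channel known as an irritant sensor, fell from 186.7 to 193.9 CPM with vehicle to 67.8 to 71.01 CPM with TWEAK at 24 h and stood at 118.2 to 131.4 CPM with NIK SMI1. Its log2 changes were −0.68 and −1.44 with TWEAK at 6 h and 24 h and 0.30 and 0.82 with NIK SMI1, all past the test (highest adjusted p = 2.09e-06). Pkhd1, which encodes the ciliary protein fibrocystin, fell by 0.66 at 24 h (adjusted p = 7.47e-09) and was raised by 0.37 with NIK SMI1 (adjusted p = 0.000138). Trpv3, a low gene at 0.04681 RPKM, rose by 1.98 at 24 h (adjusted p = 0.00556). It then measured 0.05073 to 0.1464 CPM with vehicle, near the level of 3 reads in a sample. With TWEAK it measured 0.2203 to 0.4709 CPM and with NIK SMI1 0.261 to 0.4875 CPM. At 6 h it measured 0.1603 to 0.324 CPM with vehicle and 0.2982 to 0.4753 CPM with TWEAK.

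Atp1b1, at chr1:164437099-164458355 of GRCm38, encodes the beta 1 subunit of the sodium pump and rose. At 6 h it measured 44.0, 44.5 and 41.8 CPM with vehicle, 50.8, 50.5 and 49.2 CPM with TWEAK, and 44.8, 42.8 and 45.6 CPM with TWEAK and NIK SMI1. TWEAK samples lay above both other groups, and those overlapped each other. At 24 h it measured 40.2, 36.4 and 42.1 CPM with vehicle, 53.9, 53.4 and 54.0 CPM with TWEAK, and 45.4, 46.8 and 50.1 CPM with TWEAK and NIK SMI1. The 3 groups were separate at that time.

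The rise of Atp1b1 was 1.17-fold at 6 h (log2 0.22 ± 0.05 SE, adjusted p = 0.000697) and 1.36-fold at 24 h (log2 0.44 ± 0.05 SE, adjusted p = 3.73e-08). The difference between the times passed the test by a small margin (log2 0.22, adjusted p = 0.0422). NIK SMI1 lowered Atp1b1 by 0.18 at 6 h (adjusted p = 0.0135) and by 0.19 at 24 h (adjusted p = 0.00518), and 58.2% of the TWEAK effect was left at 24 h (42.4% to 76.3%). The call for NIK SMI1 at 6 h was lost without replicate 2 of that group (adjusted p = 0.0828). With a single TWEAK sample at 24 h the inhibitor's value was −0.20 for replicate 1 and −0.17 for replicate 2, at adjusted p = 0.103 and 0.138. Exons of Atp1b1 overlap Nme7 on the other strand. Nme7 had 19.07 to 28.66 CPM and log2 changes of −0.01 and 0.00 with TWEAK at 6 h and 24 h (adjusted p = 0.917 and 0.986).

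The other abundant beta subunit, Atp1b3, had 17.38 RPKM, near Atp1b1 at 17.2 RPKM. It gave log2 changes of −0.03 and −0.07 with TWEAK (adjusted p = 0.772 and 0.278). Fxyd5, a FXYD protein also called dysadherin, gave −0.15 and −0.02 (adjusted p = 0.216 and 0.887).

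**Figure D3:**
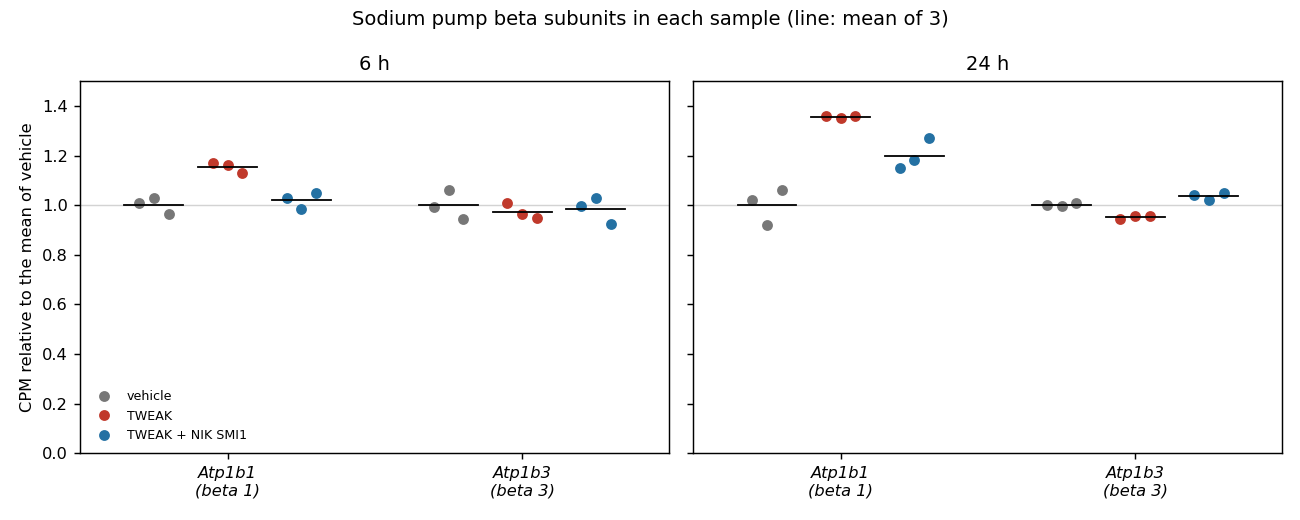
CPM of 2 sodium pump beta subunits in each sample, divided by the mean of the vehicle samples of the same time (grey vehicle, red TWEAK, blue TWEAK with NIK SMI1; line, mean of 3). With TWEAK, Atp1b1 lies above every vehicle sample at both times, and the changes of Atp1b3 (log2 −0.03 and −0.07) did not pass the test.

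Fxyd2, at chr9:45399709-45410278 of GRCm38, was a low gene with fewer reads at 24 h than at 6 h in each treatment. Its reads were 13, 8 and 25 with vehicle, 9, 23 and 12 with TWEAK, and 12, 4 and 10 in inhibited cells at 6 h. At 24 h they were 0, 2 and 1, then 3, 3 and 0, then 3, 1 and 7. Summed over the 3 samples of a group, vehicle had 46 reads at 6 h and 3 at 24 h, a ratio of 0.0945 in CPM (exact 95% interval 0.0188 to 0.294, counting error only). The same ratio was 0.151 (0.0525 to 0.355) with TWEAK and 0.305 (0.136 to 0.639) with TWEAK and NIK SMI1. Since the gene passed the limit on reads only through samples of 6 h, the call in vehicle over time (log2 −3.31, adjusted p = 0.00293) is given as a description. Without replicate 1 of vehicle at 24 h it was −2.35 (adjusted p = 0.0548), and DESeq2 gave no adjusted p for it. No TWEAK or NIK SMI1 comparison of Fxyd2 passed, and the 95% intervals were wide, from −1.05 to 0.88 with TWEAK at 6 h and from −1.99 to 3.04 at 24 h, so that at 24 h a change of several fold was not detectable at this depth.

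Among the ENaC subunits, Scnn1a alone had more than 4 reads in any sample. It lies at chr6:125314271-125344943 of GRCm38 and had 44 to 224 reads per sample. At 6 h its level was 3.34, 3.79 and 3.41 CPM with vehicle, 3.56, 2.78 and 2.77 CPM with TWEAK, and 2.64, 2.56 and 2.44 CPM with TWEAK and NIK SMI1. TWEAK replicate 1 reached the vehicle range, and the inhibited samples were the lowest of the 9. At 24 h its level was 5.24, 5.38 and 6.05 CPM with vehicle, 3.57, 2.38 and 2.58 CPM with TWEAK, and 4.31, 3.71 and 3.41 CPM with TWEAK and NIK SMI1. All vehicle samples lay above the rest, and TWEAK replicate 1 overlapped with the inhibited samples.

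TWEAK reduced Scnn1a to 0.498 of vehicle at 24 h (log2 −1.01 ± 0.14 SE, adjusted p = 2.39e-06), and the value at 6 h did not pass (log2 −0.21, adjusted p = 0.341). The effect differed between the times (log2 −0.80, adjusted p = 0.0103). With NIK SMI1, Scnn1a was higher than with TWEAK at 24 h (log2 0.48 ± 0.15 SE, adjusted p = 0.0205) and still below vehicle (log2 −0.53, adjusted p = 0.00665). That inhibitor call was lost when replicate 2 or 3 of TWEAK or replicate 1 of the inhibited group was left out, with values of 0.35, 0.43 and 0.38 and adjusted p = 0.162, 0.091 and 0.122. It was 0.69 with TWEAK replicate 2 alone (adjusted p = 0.0173) and 0.10 with replicate 1 alone (adjusted p = 0.86). The decrease with TWEAK passed with either sample alone, at −1.22 and −0.62. Scnn1a rose with time in vehicle by 0.59 on the log2 scale (adjusted p = 0.00169). Summed markers of collecting duct principal cells (10 genes, of which 1 to 3 were at 0 in every sample of a group) went the other way at 24 h, from 4.718 to 5.028 CPM with vehicle to 7.816 to 8.856 CPM with TWEAK and 5.973 to 6.792 CPM with NIK SMI1. Most of that sum was Hsd11b2 and Gata3, at 4.059 to 6.741 and 0.2029 to 2.187 CPM over the 18 samples. Each of the other markers, Scnn1b and Scnn1g among them, had at most 0.2771 CPM in a sample.

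Scnn1b and Scnn1g, the partners that a full ENaC needs, had 15 and 17 reads in all 18 samples together. Scnn1b had at most 3 reads in a sample, and Scnn1g at most 4. Exons of Scnn1b overlap Cog7 on the other strand, which measured 29.47 to 39.47 CPM. Since the libraries do not mark strand, reads of Scnn1b and Cog7 cannot be told apart where they overlap. Scnn1b had 0 reads in the 6 samples with NIK SMI1, which allows up to 0.03796 CPM at 6 h and 0.02738 CPM at 24 h in the summed group (3 reads). Scnn1g had 0 reads in the 6 stimulated samples at 24 h, which allows up to 0.02696 CPM with TWEAK and 0.02738 CPM with TWEAK and NIK SMI1. Differences between groups were not detectable at this depth. In a fit of 26210 genes without the limit on reads, Scnn1b, Scnn1g and Kcnj15 gave 0 calls over 9 comparisons with edgeR, 1 value with an unadjusted p below 0.05, and a lowest adjusted p of 0.251.

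Genes known to regulate ENaC were mostly present. Of the 20 tested, 1 rose and 8 fell with TWEAK at 6 h (background 11.7% higher and 12% lower), and 4 rose and 11 fell at 24 h (18.3% and 20.7%), with a median of −0.29 (log2) at 24 h against −0.01 for all genes. NIK SMI1 raised 5 and lowered 1 at 6 h (5.34% and 5.7%), and raised 8 and lowered 4 at 24 h (10.2% and 8.29%). Nedd4l, a ubiquitin ligase that removes ENaC from the membrane, fell from 97.45 to 103.6 CPM with vehicle to 62.97 to 66.14 CPM with TWEAK at 24 h (log2 −0.65, adjusted p = 7.54e-13). Nr3c2, the mineralocorticoid receptor through which aldosterone acts, fell by 0.64 (adjusted p = 1.2e-08), and the kinase gene Wnk4 fell by 1.45 (adjusted p = 4.81e-09). Sgk3, a kinase related to the aldosterone-induced Sgk1, fell by 0.60 and was raised by 0.60 with NIK SMI1 (adjusted p = 1.25e-05 and 2.52e-05). NIK SMI1 raised Nedd4l less, by 0.28 at 24 h (adjusted p = 9.24e-06 by edgeR). For Nr3c2 its value was 0.13, which did not pass (adjusted p = 0.193 by edgeR). Wnk4 measured 6.594 to 7.273 CPM with vehicle, 2.247 to 2.654 CPM with TWEAK and 2.987 to 3.655 CPM with NIK SMI1 at 24 h.

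Kcnj16, at chr11:110968033-111027968 of GRCm38, encodes Kir5.1, a subunit that works together with other Kir subunits in kidney tubules. Its reads were few, 2 to 31 per sample. At 6 h it measured 0.421, 0.454 and 0.520 CPM with vehicle, 0.230, 0.378 and 0.396 CPM with TWEAK, and 0.417, 0.439 and 0.333 CPM with TWEAK and NIK SMI1. At 24 h it measured 0.725, 0.558 and 0.537 CPM with vehicle, 0.308, 0.0856 and 0.0478 CPM with TWEAK, and 0.429, 0.203 and 0.325 CPM with TWEAK and NIK SMI1. The vehicle samples of 24 h were the highest of all 18, and 2 of the TWEAK samples of 24 h, with 4 and 2 reads, were the lowest.

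The decrease of Kcnj16 with TWEAK at 24 h passed the test (log2 −2.36 ± 0.46 SE, adjusted p = 0.00016), and the value at 6 h did not (log2 −0.45, adjusted p = 0.431). The difference between the times was near the threshold (log2 −1.91, adjusted p = 0.0455). The value with NIK SMI1 at 24 h was 1.42 ± 0.50 SE (adjusted p = 0.047), the groups overlapped, and the call was lost when any of 4 samples was left out (adjusted p = 0.0908 to 0.243) and with DESeq2. The TWEAK libraries of 24 h held 0.308 CPM of Kcnj16 where islet reads were 15.1 CPM, and 0.0856 and 0.0478 CPM where islet reads were 0.235 and 4.68 CPM. With TWEAK replicate 1 alone the value for TWEAK was −1.01 (adjusted p = 0.219), and with replicate 2 alone −2.83 (adjusted p = 0.000916). The values for NIK SMI1 were then 0.07 and 1.89, neither past the test (lowest adjusted p = 0.076). The inhibited libraries, which had the fewest islet reads, held 0.203 to 0.429 CPM of Kcnj16. The part of islet reads in these values was not tested. Kcnj15, which encodes Kir4.2, had 22 reads in all, at most 5 in a sample. Its exons overlap the antisense genes Gm31641 and Gm49643, whose reads cannot be told apart from those of Kcnj15 there.

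Of the other inward rectifier genes, 3 were tested, with 1 higher and 0 lower with TWEAK at each time (background 11.7% and 12% at 6 h, 18.3% and 20.7% at 24 h). That gene was Kcnj11, which encodes the pore of the ATP-sensitive potassium channel. It rose from 0.454 ± 0.119 to 1.45 ± 0.22 CPM at 6 h and from 0.299 ± 0.0488 to 0.991 ± 0.0501 CPM at 24 h (SD, n = 3, log2 1.63 and 1.66, adjusted p = 1.69e-05 and 0.000159). With NIK SMI1 it fell at 24 h (log2 −1.01, adjusted p = 0.0102). Kcnj11 is also a gene of islet cells. It measured 0.956 to 1.05 CPM in the TWEAK libraries of 24 h, over which the islet reads went from 0.235 to 15.1 CPM, and the part of islet reads in its changes was not tested.

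**Figure D4:**
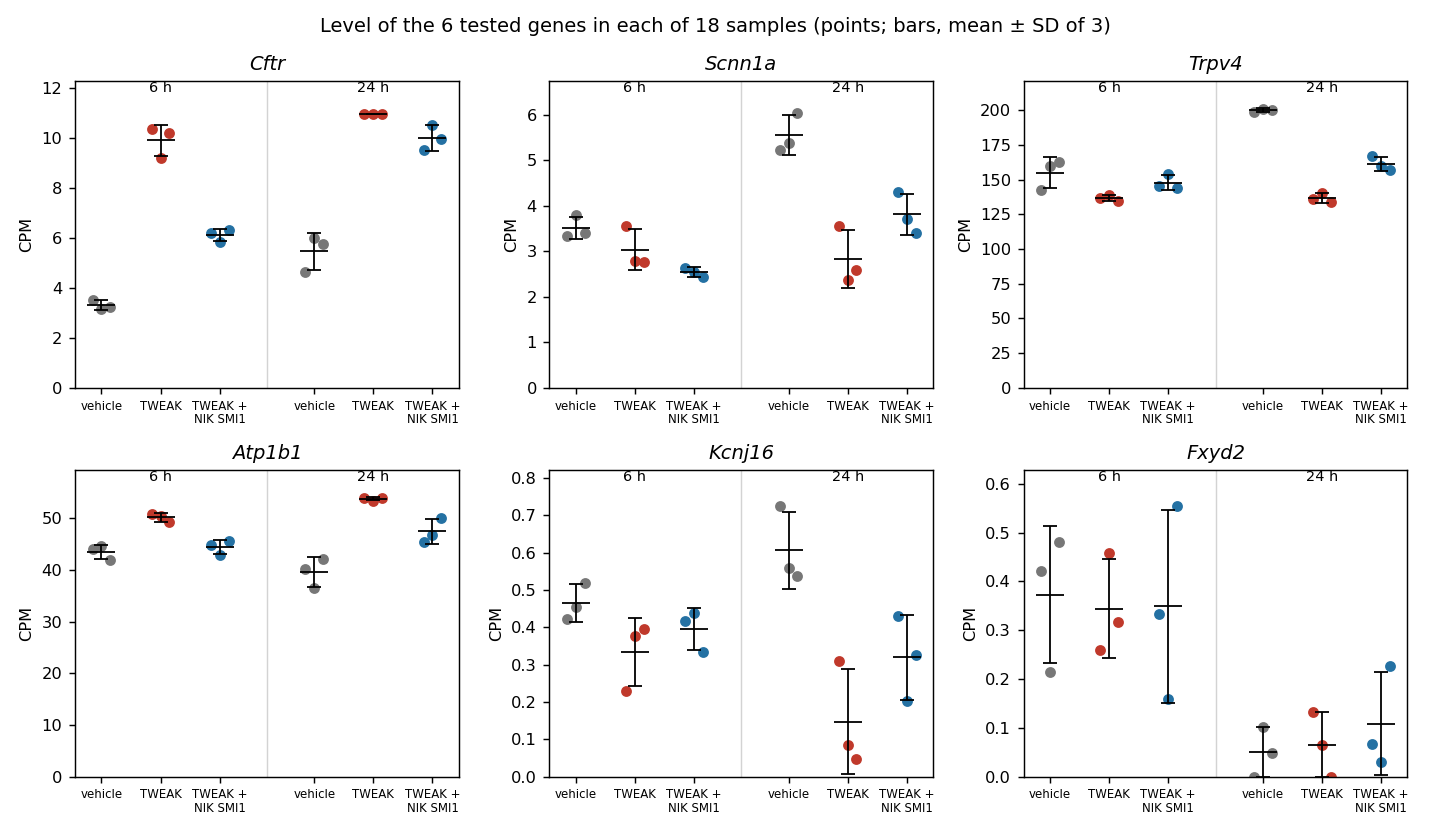
CPM of the 6 tested genes in each of the 18 samples (grey vehicle, red TWEAK, blue TWEAK with NIK SMI1; 6 h left and 24 h right in each panel; bars, mean ± SD of 3). Cftr and Atp1b1 are highest with TWEAK, whereas Trpv4, Scnn1a and Kcnj16 are highest in vehicle at 24 h, and Fxyd2 is higher at 6 h than at 24 h.

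The levels in vehicle also changed between the times, so that each TWEAK effect is measured against a moving baseline. Vehicle at 24 h was higher than at 6 h for Cftr, Scnn1a and Trpv4 and lower for Atp1b1, that is 3 higher and 1 lower of 5, where 15.5% and 14.4% of all genes were called. Fxyd2, which passed the limit on reads only through samples of 6 h, is left out of this count. For Trpv4, Scnn1a and Atp1b1, vehicle moved with time in the direction opposite to that of TWEAK. The TWEAK effect differed between the times for 5 of the 6 genes, higher for Atp1b1 and lower for Cftr, Scnn1a, Trpv4 and Kcnj16 (background 3.24% higher and 5.67% lower). The NIK SMI1 effect differed for Cftr, which was 1 higher and 0 lower (background 3.11% and 1.62%). For Scnn1a that difference was 0.72 on the log2 scale, with an adjusted p of 0.0516. Compared with vehicle, the inhibited cells were higher in Cftr only at 6 h (background 7.24% higher and 6.7% lower). At 24 h they were higher in Cftr and Atp1b1 and lower in Scnn1a and Trpv4 (background 8.07% and 9.83%). Islet reads were 15.7 to 21.8 CPM in the vehicle libraries of 24 h and 0.0451 to 0.087 CPM in the inhibited ones. Their part in this comparison was not tested. These comparisons share their vehicle and TWEAK samples.

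Over the 18 samples, the log2 levels of Trpv4 and Atp1b1 went in opposite directions (Pearson's r = −0.94, a description over samples of 6 groups), and those of Trpv4 and Scnn1a went together (r = 0.83). Cftr correlated less with Trpv4 (r = −0.57) and with Scnn1a (r = −0.35). Among 13166 genes with a mean of at least 1 CPM, the genes most like Cftr were Parp14 (r = 0.973), Scin (0.972) and Cep162 (0.963), and the most opposite was Ackr3 (−0.948). Trpv4 was most like Ramp3 (0.969), Tmprss2 (0.962) and Tmem63a (0.961) and most opposite to Smarcc1 (−0.98). Among the genes most like Atp1b1 were Kdm1a (0.946) and Aplp2 (0.944), and the gene most opposite to it, Tmem63a (−0.978), was one of those most like Trpv4. Scnn1a was most like Rab11fip4 (0.925), Papss1 (0.903) and Enpp5 (0.903) and most opposite to Psen2 (−0.893). The samples share their groups and times, and the highest values were chosen from all genes.

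Genes that act with CFTR or set its cAMP supply made up another list. Of 21 tested, 1 rose and 8 fell with TWEAK at 6 h (background 11.7% higher and 12% lower), and 1 rose and 13 fell at 24 h (18.3% and 20.7%). NIK SMI1 raised 6 and lowered 2 at 6 h (5.34% and 5.7%), and raised 7 and lowered 0 at 24 h (10.2% and 8.29%). Adcy7, an adenylyl cyclase that makes cAMP, fell by 0.60 and 0.74 on the log2 scale (adjusted p = 2.42e-06 and 1.28e-07). Prkacb, a catalytic subunit of protein kinase A, fell by 0.60 at 24 h (adjusted p = 3.42e-14), and Prkg2, a cGMP-dependent kinase, by 0.69 (adjusted p = 2.17e-13). Pde4b, a phosphodiesterase that breaks down cAMP, rose by 0.89 at 6 h and by 0.25 at 24 h (adjusted p = 4.87e-09 and 0.034). Adcy7 and Pde4b were low, at a mean of 1.151 and 1.358 RPKM. Adcy6, the most abundant adenylyl cyclase of the list, had 17.77 RPKM, and Prkacb had 65.76 RPKM. The level of cAMP was not measured.

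**Figure D5:**
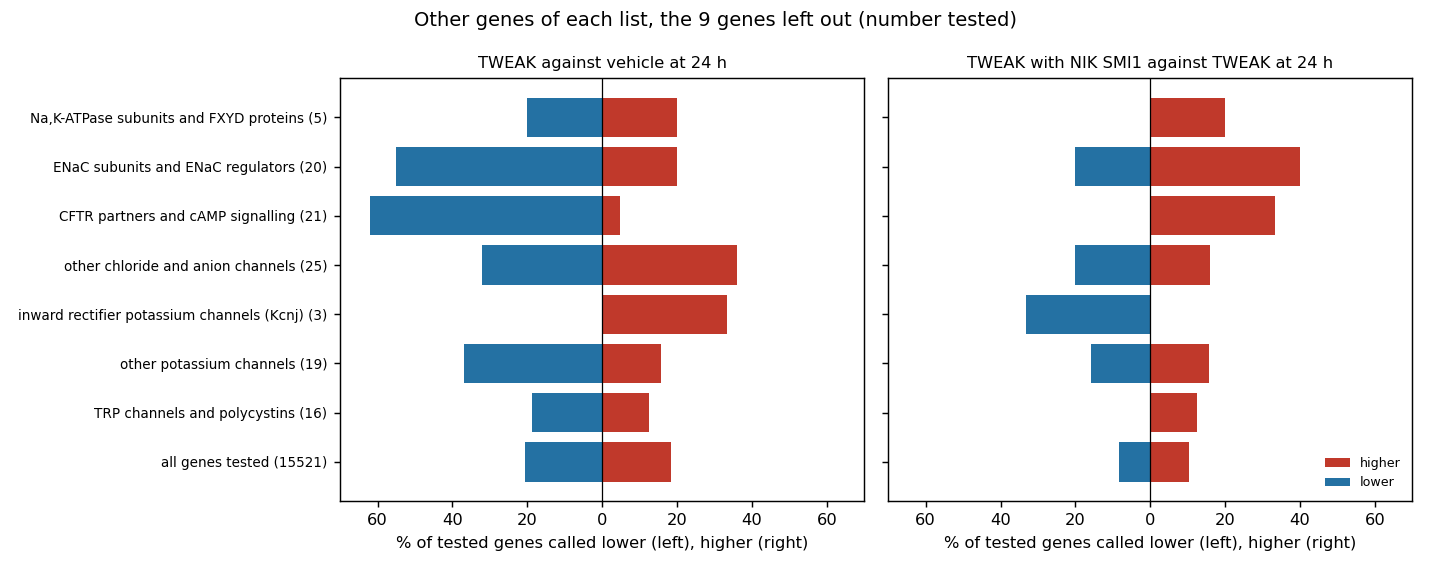
Share of the tested genes of 7 lists, the 9 genes left out, that were lower (blue, left) or higher (red, right) at 24 h at an adjusted p below 0.05, with TWEAK against vehicle and with NIK SMI1 against TWEAK; the number tested is in parentheses and the bottom bar is all 15521 genes. The CFTR list has 13 of 21 genes lower with TWEAK and the ENaC list 11 of 20.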

How the data were processed

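RNA of the 18 samples was sequenced from unstranded TruSeq v2 libraries. The labels and the study's methods differ on sequencer, read length and RNA input. The authors mapped reads with GSNAP, through HTSeqGenie, on NCBI build 37 of the mouse genome and deposited, per Entrez gene, the raw count of uniquely aligned reads in exons, its exonic width, and RPKM. Their RPKM total per sample was larger than the counted reads, which were 94.97% to 97.13% of it. Symbols (31049 of 36528 genes) and positions came from RefSeq GRCm38.p6, and overlaps from GENCODE M21, without conversion between builds.

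Counts were modelled with edgeR 4.0.16 (TMM, glmQLFit, glmQLFTest, R 4.3.3), with 1 coefficient for each of the 6 groups. Tested were 15521 genes that exceeded 10 reads in 4 or more samples, the limit of the study's methods, and adjustment of p-values (Benjamini-Hochberg) ran over all of them. The study's processing notes name DESeq2, which (version 1.42.0) was run as an alternative. Standard errors came from the F statistic. Levels are CPM of the raw totals. The share of a TWEAK effect left is the log2 difference of an inhibited sample from the mean of vehicle, divided by that of TWEAK. It used log2 CPM of TMM-scaled totals with a prior count added. Its range covers the inhibited samples only and leaves out the error of the vehicle and TWEAK means. An exact permutation test of 3 against 3 samples cannot go below p = 0.1 and was not used. Other alternatives were DESeq2 size factors in edgeR, no size factors, no limit on reads, filterByExpr, each time alone, the study's fold limits, leaving out each sample, TMM-scaled CPM, and deposited RPKM. Scripts were tested on simulated data with known changes.

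Named besides the 9 genes were Nfkb2, Relb and Birc3, from each list up to 3 genes with the smallest adjusted p among those changed over 1.5-fold per comparison, overlapping genes, and the genes most like each gene with at least 1 CPM. Atp1b3, Fxyd5, Nme7, Krt18, Cdh1, Piezo1 and Adcy6 were chosen after their values were seen. Results on a few other genes that this rule names are not reported here. The genes and lists were chosen with earlier results of these data known. Intervals on reads cover counting error only.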

Additional observations from a re-analysis of the deposited data

Results flagged for a closer look

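The change with TWEAK differed between 6 h and 24 h for 5 of the 6 tested genes by the interaction term of the fit. On the log2 scale, the effect at 24 h minus that at 6 h was −0.56 for Cftr, −0.80 for Scnn1a, −1.91 for Kcnj16, −0.38 for Trpv4 and 0.22 for Atp1b1. For Cftr the rise was smaller at 24 h, and for the other 4 the change was larger at 24 h. The change with NIK SMI1 differed between the times for Cftr (0.56), which the inhibitor lowered at 6 h and not past the test at 24 h. The differences of Kcnj16 and Atp1b1 lost the call in 10 of 12 fits that each left out 1 sample, at adjusted p up to 0.168 and 0.132. For Scnn1a, 1 of 12 fits lost it (without replicate 2 of TWEAK at 24 h, adjusted p = 0.0512). Groups of 3 samples are too small for a test of single samples that stand apart.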

How the results depend on the processing

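No paired analysis was possible because the labels give no replicate numbers. Of 54 tested log2 fold changes of single genes, 30 passed. They include Fxyd2 in vehicle over time, which is only a description, since that gene passed the limit on reads only through samples of 6 h. Under the other tool, scalings and limits on reads, each time alone, 1 sample left out and a single TWEAK sample at 24 h, 21 of the 30 passed throughout and 0 changed direction, the study's fold limits not counted. DESeq2 kept 27 of the 30, lost 2 (Kcnj16, with NIK SMI1 at 24 h and in the difference of TWEAK effects) and gave no adjusted p for 1 (Fxyd2 in vehicle over time). With the study's fold limits added (above 2-fold, or above 1.5-fold for NIK SMI1), the number of genes called was 1 in place of 3 for TWEAK at 6 h, 3 in place of 5 at 24 h, 1 in place of 2 and 1 in place of 4 for NIK SMI1 at 6 h and 24 h, 0 in place of 1 and 0 in place of 4 for inhibited cells against vehicle, 1 in place of 5 for vehicle over time (Fxyd2 included), 1 in place of 5 for the difference of TWEAK effects and 0 in place of 1 for that of NIK SMI1 effects, since most changes were under these limits. Leaving out 1 sample gave 1 to 3 genes for NIK SMI1 at 6 h, 2 to 4 at 24 h, 2 to 4 for the difference of TWEAK effects and 1 to 2 for that of NIK SMI1 effects. With TWEAK replicate 1 or 2 alone, an alternative chosen after seeing the data, NIK SMI1 at 24 h gave 1 and 2 genes. Without a limit on reads the difference of TWEAK effects gave 3 genes, and that of NIK SMI1 effects gave 2, as with DESeq2, where Scnn1a was added. The cause was not tested.

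Directions changed only for values near 0 or with few reads, none of which had passed. Leaving out 1 sample, Fxyd2 ran from −0.37 to 0.19 with TWEAK at 6 h, −0.43 to 1.57 at 24 h, −0.44 to 0.23 and −0.10 to 1.48 with NIK SMI1 at 6 h and 24 h, −0.53 to 0.14 for inhibited cells against vehicle at 6 h, −0.35 to 1.65 for the difference of TWEAK effects and −0.0066 to 1.58 for that of NIK SMI1 effects. With TWEAK replicate 1 alone it was −0.38 with NIK SMI1 at 24 h. For Atp1b1, the difference of NIK SMI1 effects ran from −0.046 to 0.031 and was 0.0044 without a limit on reads. Depth limits Fxyd2, Kcnj16, Kcnj15, Scnn1b and Scnn1g, of which each had at most 31 reads in a sample.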

Other observations

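Other anion and potassium channel genes that were not among the 9 genes were counted as well. Of 25 other chloride and anion channel genes tested, 8 rose and 2 fell with TWEAK at 6 h (background 11.7% higher and 12% lower of all genes tested), and 9 rose and 8 fell at 24 h (18.3% and 20.7%). NIK SMI1 raised 3 and lowered 3 at 6 h (5.34% and 5.7%) and raised 4 and lowered 5 at 24 h (10.2% and 8.29%). Clic4, a chloride intracellular channel protein, rose from 90.7 to 96.52 CPM with vehicle to 159.3 to 165.5 CPM with TWEAK at 6 h (log2 0.80, adjusted p = 1.97e-15 by edgeR) and was lowered by 0.40 with NIK SMI1 at both times. Ttyh2 rose by 0.79 at 24 h (adjusted p = 1.55e-09), and Clic3 fell by 1.15 (adjusted p = 1.57e-05). Clic5, a low gene at 0.09643 RPKM, rose by 1.01 at 6 h (adjusted p = 0.00821), and its value at 24 h did not pass (log2 0.11, adjusted p = 0.789 by edgeR). Its vehicle mean was 0.3909 CPM at 6 h and 0.7711 CPM at 24 h, and its TWEAK mean 0.7913 and 0.8344 CPM.

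Of 19 other potassium channel genes tested, 3 rose and 6 fell with TWEAK at 6 h, and 3 rose and 7 fell at 24 h, with 2 raised and 1 lowered by NIK SMI1 at 6 h and 3 raised and 3 lowered at 24 h, against the same background. The 2-pore channels Kcnk5 and Kcnk1 fell at 24 h by 1.16 and 0.62 and were raised by 0.57 and 0.37 with NIK SMI1 (adjusted p for NIK SMI1 = 3.42e-08 and 1.22e-08). Lrrc26, an accessory subunit of BK channels, fell by 2.87 at 24 h (adjusted p = 8.64e-10) and was raised by 1.39 (adjusted p = 0.000946). Kcne3, an accessory subunit of KCNQ1, fell by 1.93 (adjusted p = 0.000227), and Kcnn3 rose by 1.71 (adjusted p = 0.00239). Several of these are low genes, such as Kcnn3 at 0.05222 RPKM.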
